A study of Mus musculus with 4 samples.

Results

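SWI/SNF and ISWI are families of chromatin remodelers, and the 10 genes described here encode their ATPases and main subunits. They are Smarca1, Smarca2, Smarca4, Smarca5, Smarcb1, Smarcc1, Smarcc2, Arid1a, Arid1b and Arid2. They were chosen by symbol, and all 10 are among the 16861 genes listed in the RNA-seq libraries. Smart-seq2 libraries, that is PCR-amplified cDNA of poly(A) RNA, were made from fully grown germinal vesicle (GV) oocytes of 3-week-old female C57BL/6J mice. The oocytes were freed of cumulus cells by pipetting, stained with a Hoechst dye and sorted by eye into the NSN configuration (non-surrounded nucleolus, diffuse chromatin) and the SN configuration (surrounded nucleolus, a ring of condensed chromatin). There were 2 NSN and 2 SN libraries, each a pool of 15 oocytes, with no treatment or genotype compared. All oocytes were held in milrinone, which keeps them in meiotic arrest, while they were sorted, and their zonae were removed with pronase, which all 4 libraries share. It is not stated whether the libraries of a configuration came from different mice, so the p-values measure the spread between these libraries, which may be technical. NSN oocytes transcribe and SN oocytes are known to be largely silent, so the comparison asks which remodeler transcripts the oocyte holds before and after this transition.

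SWI/SNF complexes (BAF, PBAF and the non-canonical GBAF) use ATP to slide or evict nucleosomes and are known for opening promoters and enhancers. Each contains 1 ATPase, either SMARCA4 (BRG1) or SMARCA2 (BRM), on a scaffold of SMARCC proteins. ISWI complexes carry SMARCA5 (SNF2H) or SMARCA1 (SNF2L) and are known for spacing nucleosomes evenly, which lets CTCF and other factors bind in ordered arrays. Since SN oocytes make little new RNA, the mRNAs they store make up much of what the early embryo receives.

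The promoters of the ATPase genes are shown first, because the members of each ATPase pair differed most in level. The sequences were read from GRCm39 at the start of the canonical transcript in a GENCODE annotation later than the one the authors used, from 250 bases before it to 50 bases from it, 5′ to 3′ on the strand of the gene. Start sites were not measured in these oocytes. Capitals mark the GC box (GGGCGG, or CCGCCC on the other strand) and the CCAAT box (CCAAT, or ATTGG on the other strand).
Smarca5 (chr8:81466103-81466402, minus strand): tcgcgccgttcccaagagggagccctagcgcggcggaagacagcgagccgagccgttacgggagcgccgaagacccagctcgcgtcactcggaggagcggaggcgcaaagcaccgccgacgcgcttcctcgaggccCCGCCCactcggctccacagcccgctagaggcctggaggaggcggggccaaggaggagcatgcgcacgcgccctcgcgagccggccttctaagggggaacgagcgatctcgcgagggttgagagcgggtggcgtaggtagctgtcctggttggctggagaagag
Smarca1 (chrX:46981392-46981691, minus strand): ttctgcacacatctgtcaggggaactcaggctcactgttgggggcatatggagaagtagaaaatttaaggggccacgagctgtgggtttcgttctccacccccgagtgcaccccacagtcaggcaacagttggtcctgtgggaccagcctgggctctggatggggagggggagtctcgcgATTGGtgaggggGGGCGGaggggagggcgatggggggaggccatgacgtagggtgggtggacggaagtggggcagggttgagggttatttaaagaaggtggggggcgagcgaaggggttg
Smarca2 (chr19:26582963-26583262, plus strand): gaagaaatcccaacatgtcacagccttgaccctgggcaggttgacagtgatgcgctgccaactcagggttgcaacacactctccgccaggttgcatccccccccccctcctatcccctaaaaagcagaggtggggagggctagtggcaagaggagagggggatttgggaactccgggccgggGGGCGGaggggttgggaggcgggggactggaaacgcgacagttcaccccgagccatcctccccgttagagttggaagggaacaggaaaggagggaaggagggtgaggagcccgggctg
Smarca4 (chr9:21527148-21527447, plus strand): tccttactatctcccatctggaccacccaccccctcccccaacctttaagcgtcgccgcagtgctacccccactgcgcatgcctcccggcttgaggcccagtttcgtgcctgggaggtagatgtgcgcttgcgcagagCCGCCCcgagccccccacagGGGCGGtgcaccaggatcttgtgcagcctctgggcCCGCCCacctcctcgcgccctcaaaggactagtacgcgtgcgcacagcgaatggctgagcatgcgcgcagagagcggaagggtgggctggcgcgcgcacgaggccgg
The Smarca5 window held 38 CpG and the Smarca1 window 11, while the Smarca4 window held 26 and the Smarca2 window 11. Over the 10 genes the median was 26.5 CpG and 65.3% GC, against 11 CpG and 54.3% GC over the 21757 promoters of protein-coding genes. The GC box, bound by factors of the SP family, was present in 9 of the 10 windows (all but Smarcc2) and in 42.5% of all promoters. The CCAAT box was present in 2 of the 10 (Smarca1 and Smarcc2) and in 39.9% of all, and TATAAA in 0 of the 10 and in 13.2% of all. Of the other motifs searched on both strands, CCGGAAG was found in Smarcc1 (10.3% of all promoters) and CGCATGCG in Smarcb1 and Smarcc1 (2.59% of all). CAGCTG and TAATTG were found in 0 of the 10 windows, against 14.9% and 8.05% of all promoters. These matches describe the letters of the windows and carry no information on binding. The abundant Smarca2 and the barely detected Smarca1 both had 11 CpG in these windows. Whether level goes with the CpG number of a promoter was not tested.

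The level of a gene is given as FPKM, the read pairs on its exons scaled to gene length and library total, as deposited. The totals recovered from the FPKM were 17069772 to 17998361 read pairs, and the 100 most abundant genes held 38.8% to 39.9% of them in NSN and 35.4% to 35.5% in SN oocytes. FPKM are shares of a library and carry no measure of RNA per oocyte, so more transcripts of a gene and less RNA from other genes cannot be told apart. The 12 oocyte markers were all listed. Their summed level was 21440 to 22882 FPKM in NSN and 14615 to 15364 FPKM in SN oocytes. Of the 12, 11 had a lower FPKM in each SN library than in either NSN library, Kit being the exception. The test described below called 8 of them lower, among them Gdf9, Bmp15 and Zp3. Log2 fold changes of Gdf9, Bmp15 and Zp3 were -1.07, -0.61 and -0.43 (limma adjusted p = 0.0364 each). After median scaling, described below, these were -1.22, -0.77 and -0.59, and Zp2 and Mos were no longer called (limma adjusted p = 0.0544 and 0.0556). Of all genes tested, 1.98% were called lower on the deposited FPKM. Of 16 granulosa and cumulus markers, 10 were listed, and their summed level was 9.64 and 13.8 FPKM in NSN and 14.1 and 13.9 FPKM in SN oocytes. Most of it came from Cyp19a1 (aromatase, 6.93 FPKM in NSN and 8.30 FPKM in SN), with Kitl and Nr5a2 above 1 FPKM as well. Foxl2, Amh, Amhr2, Fst, Ptx3 and Tnfaip6 are not among the listed genes. Of 9 markers of other ovarian cells and blood, 4 were listed, at a summed 5.51 to 6.86 FPKM in NSN and 6.98 to 7.41 FPKM in SN oocytes, and Pecam1 and Dcn were above 1 FPKM, while Cyp17a1, Col1a1, Ptprc, Hbb-bs and Hba-a1 are not among the listed genes. None of the 6 somatic markers tested was called. Their sums were higher in both SN libraries, and their part in the results below was not tested.

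The 10 remodeler genes differed widely in level. In NSN oocytes, Smarcb1 was the highest at 127 ± 5.13 FPKM (SD, n = 2), followed by Smarca2 at 46.7 ± 0.0893, Smarca5 at 5.71 ± 0.998 and Arid1a at 4.83 ± 0.132 FPKM. Arid1b (3.92 ± 0.368 FPKM) and Arid2 (3.78 ± 0.262 FPKM) came next and did not differ beyond their spread. Smarca4 followed at 1.99 ± 0.0605, Smarcc1 at 0.768 ± 0.0339, Smarcc2 at 0.489 ± 0.123 and Smarca1 at 0.0767 ± 0.0120 FPKM. In SN oocytes the order was the same except that Arid2 lay above Arid1b, again with overlapping libraries, and no other neighbours overlapped in either configuration. Smarcb1 lay at the 96.8th percentile of the levels of all listed genes and Smarca2 at the 92.7th, whereas Smarca4 lay at the 55.0th, Smarcc1 at the 37.8th and Smarca1 at the 4.00th. Smarcb1 and Smarcc1, which encode subunits found together in SWI/SNF complexes, were therefore present at very unequal levels of mRNA. The length that enters FPKM matters here. With the longer exonic lengths of a later GENCODE release (chosen after the data were seen), Smarcb1 stood at 24.4 and Smarca2 at 19.1 FPKM in NSN oocytes and at 23.8 and 22.6 FPKM in SN oocytes, still in that order, and ranks changed only among the 3 ARID genes.

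**Figure D1:**
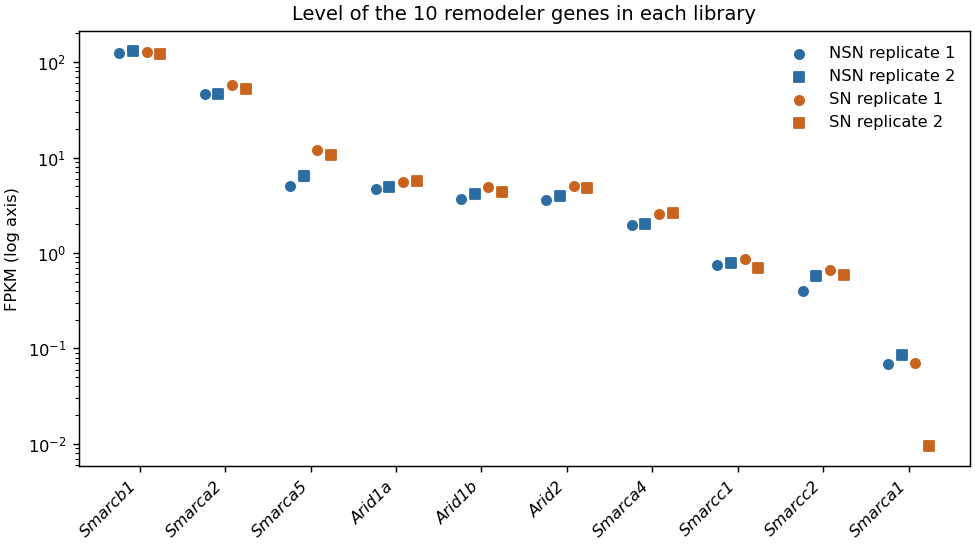
Level of each of the 10 remodeler genes in FPKM (log axis), with 1 point per library (circles replicate 1, squares replicate 2, blue NSN, orange SN), ordered by the NSN mean. Smarcb1 and Smarca2 stand above the rest, and Smarca1 lies below 0.1 FPKM in every library. Among the 9 of these genes that were tested, Smarca5 has the widest gap on the log axis between its SN libraries (12.0 and 10.7 FPKM) and its NSN libraries (5.01 and 6.42 FPKM).

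Changes between the configurations were tested with limma on log2(FPKM + 0.5), a scale that understates the change of low genes. A gene was called at a Benjamini-Hochberg adjusted p under 0.05 over the 11672 genes whose mean was 0.5 FPKM or more, together with a fold change of at least 1.2. Of the 10 genes, 9 passed this filter and Smarca1 did not. One of the 9 was called, Smarca5, which was higher in SN oocytes. Over all genes tested, 7.93% were called, 5.95% as higher and 1.98% as lower in SN oocytes, so 1 of 9 is a share near the background. Log2 fold changes were positive for 8 of the 9 genes and for 66.7% of all genes. Both SN libraries lay above both NSN libraries for 7 of the 9, against 44.8% of all genes. The median log2 fold change was 0.23 for the 9 genes and 0.14 for all genes. After the libraries were scaled to a common median, these medians were 0.09 and 0.005, and 7 of the 9 genes and 50.6% of all genes were positive. The scaling also turned the calls over all genes from 695 higher and 231 lower (75.1% higher) to 78 higher and 179 lower (30.4% higher), so the changes below are given with their value after median scaling. The calls over all genes also depended on single libraries. Without NSN replicate 1 limma called 0 genes (2278 at an unadjusted p under 0.05), without NSN replicate 2 it called 1685, without SN replicate 1 it called 148, and without SN replicate 2 it called 11.

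**Figure D2:**
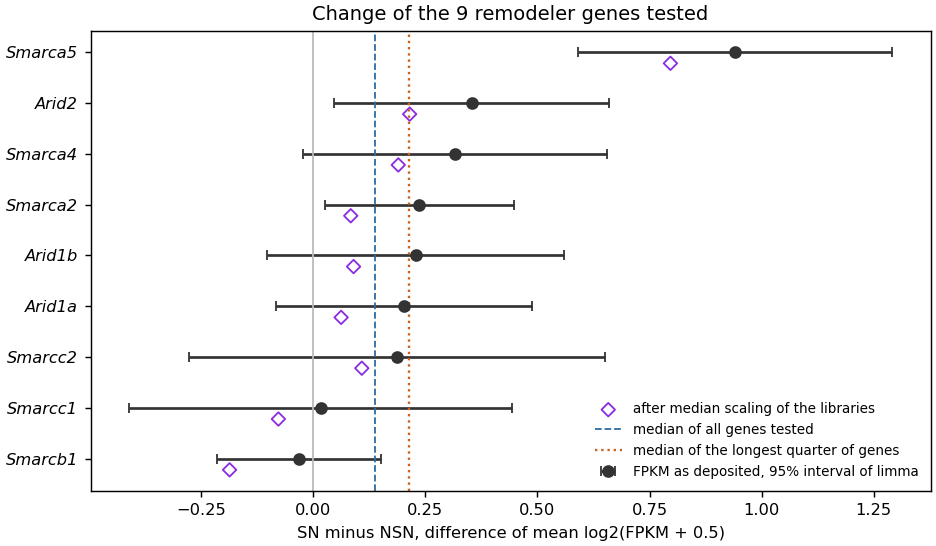
Change of the 9 remodeler genes tested, as the difference of mean log2(FPKM + 0.5) between SN and NSN oocytes (filled circles, bars the 95% interval of limma, n = 2 libraries per configuration), with the value after median scaling as open diamonds. The dashed line is the median of all genes tested (0.14) and the dotted line that of the longest of 4 length classes (0.21), and Smarca5 (0.94) is the one gene whose interval lies above both.

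Smarca5 encodes the ATPase of most ISWI complexes (ACF, CHRAC, WICH, NoRC and RSF). The gene (ENSMUSG00000031715.16) lies on chromosome 8 of GRCm39 from 81425136 to 81466152, on the minus strand. Its level was 5.01 and 6.42 FPKM in the NSN libraries and 12.0 and 10.7 FPKM in the SN libraries, from 533, 703, 1253 and 1181 read pairs. Both SN libraries were well above both NSN libraries, and the mean rose 1.99-fold. The log2 fold change was 0.94 (SE 0.15, 95% interval 0.59 to 1.29, limma adjusted p = 0.0364), and it was 0.80 after median scaling (limma adjusted p = 0.0476). With single libraries omitted, the value lay between 0.78 and 1.11. The direction held under every alternative run, with limma adjusted p from 0.000528 to 0.0953, but the call was lost without NSN replicate 1, SN replicate 1 or SN replicate 2 (limma adjusted p = 0.0723, 0.0790 and 0.0887) and after correction for gene length (log2 fold change 0.74, limma adjusted p = 0.0518). It was also lost after GC content correction (log2 fold change 0.68, limma adjusted p = 0.0502) and, at the same fold change of 0.94, with no filter on low values and with no variance trend (limma adjusted p = 0.0541 and 0.0921).

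Smarca1, the paralogous ISWI ATPase known for its expression in the nervous system, was barely detected. It lies on chromosome X from 46898245 to 46981880 (ENSMUSG00000031099.18). Its level was 0.0682 and 0.0852 FPKM in the NSN libraries and 0.0695 and 0.00942 FPKM in the SN libraries. These values rest on 7, 9, 7 and 1 read pairs, so no difference was detectable at this depth and no fold is given. Smarca5 exceeded Smarca1 by 73.5 times (exact 95% interval 35.4 to 184) and 75.4 times (39.5 to 165) in the NSN libraries and 173 times (83.6 to 430) in SN replicate 1. In SN replicate 2 the ratio of 1139 rests on the single read pair of Smarca1, with an interval of 204 to 45036. PCR copies are not separate molecules, so these intervals hold counting error alone. In every library the ISWI ATPase mRNA was almost entirely Smarca5.

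Among the SWI/SNF ATPases, Smarca2 (BRM) was the abundant one. The gene (ENSMUSG00000024921.19) lies on chromosome 19 from 26582450 to 26755722. It had 46.7 and 46.6 FPKM in the NSN libraries and 57.9 and 52.4 FPKM in the SN libraries. Both SN libraries were higher, by a log2 fold change of 0.24 (SE 0.09, 95% interval 0.03 to 0.45) that did not pass the test over all genes (limma adjusted p = 0.125), and it was 0.08 after median scaling. Smarca4 (BRG1), the ATPase whose maternal product is known to be needed for activation of the embryonic genome, had 1.95 and 2.03 FPKM in the NSN libraries and 2.57 and 2.62 FPKM in the SN libraries. The gene (ENSMUSG00000032187.18) lies on chromosome 9 from 21527398 to 21615526. The replicates of Smarca4 were close together and the configurations did not overlap. Its log2 fold change was 0.32 (SE 0.14, 95% interval -0.02 to 0.66, limma adjusted p = 0.181) and 0.19 after median scaling.

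A ratio of 2 genes within a library does not depend on how the libraries are scaled. Smarca4 stood to Smarca2 as 0.0416 and 0.0436 in NSN and as 0.0444 and 0.0501 in SN replicates 1 and 2. In other words, Smarca4 made up 4.00% to 4.77% of the summed FPKM of both genes. With the later annotated lengths, in which the exons of Smarca2 are much longer, this share was 8.96% to 10.6%. The log2 ratio was 0.15 higher in SN oocytes, against an SD of 0.09 between replicates, and between 0.06 and 0.23 when single libraries were omitted. With 2 libraries against 2, the exact two-sided permutation test cannot give a p below 0.333, which was its value here. Of the 5 ratios tested, 4 had this p and a Benjamini-Hochberg adjustment leaves none lower, so these ratios are descriptions. Smarca2 was in large excess in every library, and no shift between the SWI/SNF ATPases was resolved.

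Smarcb1 (SNF5, also BAF47) is the core subunit that holds the complex to the nucleosome. The gene (ENSMUSG00000000902.15) lies on chromosome 10 from 75732602 to 75757456. Its level was 124 and 131 FPKM in the NSN libraries and 127 and 122 FPKM in the SN libraries, so the configurations overlapped. The log2 fold change was -0.03 (SE 0.08, 95% interval -0.22 to 0.15, limma adjusted p = 0.798), and -0.19 after median scaling (limma adjusted p = 0.169). It was the one gene of the 9 below 0 on the deposited FPKM.

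The scaffold genes Smarcc1 (BAF155) and Smarcc2 (BAF170) were low. Smarcc1 (ENSMUSG00000032481.19, chromosome 9 from 109946776 to 110069252) had 0.744 and 0.792 FPKM in the NSN libraries and 0.867 and 0.703 FPKM in the SN libraries, from 82 to 96 read pairs. The SN libraries lay on either side of the NSN libraries, and the log2 fold change was 0.02 (SE 0.18, 95% interval -0.41 to 0.44, limma adjusted p = 0.960), turning to -0.08 after median scaling. Of its exons, 5.30% overlap other annotated genes such as Dhx30, and read pairs were counted without strand. The same holds for 4.55% of the exons of Smarcb1 and 4.08% of those of Smarca2. Smarcc2 (ENSMUSG00000025369.17, chromosome 10 from 128294424 to 128326456) had 0.402 and 0.576 FPKM in the NSN libraries and 0.661 and 0.584 FPKM in the SN libraries, from 36 to 58 read pairs. Both SN libraries were above, NSN replicate 2 by little, and the log2 fold change of 0.19 (SE 0.19, limma adjusted p = 0.538) was as large as its error, and it was 0.11 after median scaling. The ratio of Smarcc1 to Smarcc2 was 1.85 and 1.38 in NSN and 1.31 and 1.204 in SN replicates 1 and 2, a log2 difference of -0.34 (SD between replicates 0.22, exact permutation p = 0.333).

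The ARID subunits set the class of the complex. ARID1A and ARID1B are alternative subunits of canonical BAF, and ARID2 belongs to PBAF. Arid1a (ENSMUSG00000007880.18, chromosome 4 from 133406304 to 133484080) had 4.73 and 4.92 FPKM in the NSN libraries and 5.53 and 5.74 FPKM in the SN libraries. Arid1b (ENSMUSG00000069729.15, chromosome 17 from 5044607 to 5397931) had 3.66 and 4.18 FPKM in the NSN libraries and 4.95 and 4.41 FPKM in the SN libraries. Arid2 (ENSMUSG00000033237.21, chromosome 15 from 96184638 to 96302873) had 3.59 and 3.96 FPKM in the NSN libraries and 5.07 and 4.86 FPKM in the SN libraries. For all 3 genes both SN libraries lay above both NSN libraries, as they did for 44.8% of all genes tested. None passed the test. The log2 fold changes were 0.20 for Arid1a (SE 0.12, limma adjusted p = 0.285), 0.23 for Arid1b (SE 0.14, limma adjusted p = 0.298) and 0.35 for Arid2 (SE 0.13, 95% interval 0.05 to 0.66, limma adjusted p = 0.119). After median scaling they were 0.06, 0.09 and 0.21. Arid2 was called when limma's voom was run on the recovered read pairs (log2 fold change 0.39, limma adjusted p = 0.0295), and not with voom after median scaling. Over the alternatives its adjusted p lay between 0.0295 and 0.637.

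The 3 ARID mRNAs differed by at most 1.32 times in level within a library. Arid1a stood to Arid1b as 1.29 and 1.18 in NSN and as 1.12 and 1.303 in SN replicates 1 and 2, which overlapped (log2 difference -0.03, exact permutation p = 1). With the later annotated lengths this ratio was 0.851 to 0.994, so which of these genes was higher depended on the length used. Arid1a stood to Arid2 as 1.32 and 1.24 in NSN and as 1.09 and 1.18 in SN replicates 1 and 2, a log2 difference of -0.17 (SD between replicates 0.07, exact permutation p = 0.333). In the ATPase pairs, by contrast, Smarca4 made up at most 4.77% and Smarca5 at least 98.7% of the summed FPKM of their pair (at most 10.6% and at least 98.4% with the later lengths).

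**Figure D3:**
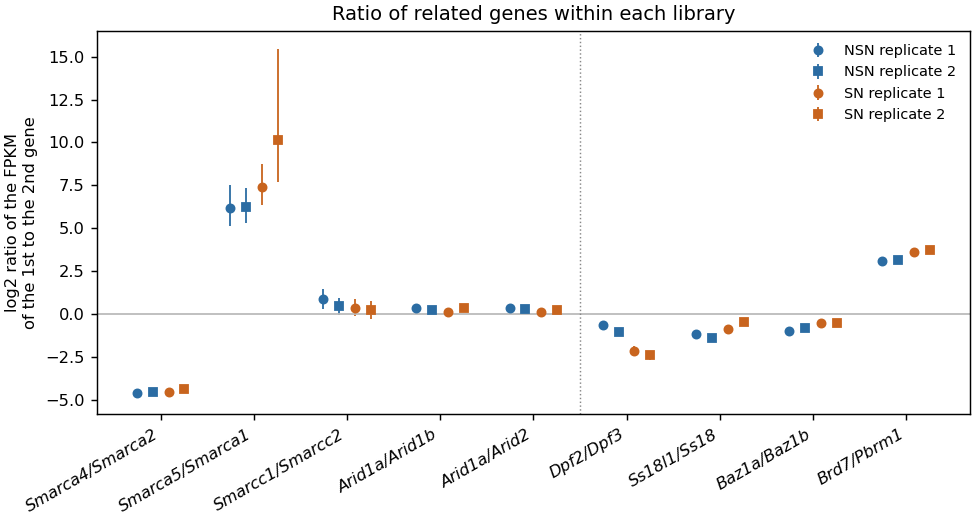
Log2 ratio of the FPKM of the gene named first to that of the second within each library (circles replicate 1, squares replicate 2, blue NSN, orange SN), with bars for the exact 95% interval of the read pairs (counting error only). The 5 pairs left of the dotted line are of the 10 genes and the 4 to the right are of other subunits, chosen after the data were seen. Smarca4 lies far below Smarca2 and Smarca5 far above Smarca1, the ARID pairs lie near 0, and the ratio of Dpf2 to Dpf3 is lower in both SN libraries.

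The change between the configurations differed with gene length, and most of these genes are long. The median length used by the authors was 6483 bases for the 9 genes tested and 2626 bases for all genes. When all genes were split by length into 4 classes of about equal size, 8 of the 9 lay in the longest class (4324 bases or more), in which the median log2 fold change was 0.21 and 8.61% of genes were called higher. Smarcb1, with 1660 bases, lay in the second shortest class, with a median of 0.08. The medians of the shortest and the second longest class were 0.17 and 0.08, so the values did not rise evenly with length. When the libraries were corrected for length, the median log2 fold change of the 9 genes was 0.0104, and limma called 0 of them (and 0 of all genes, while 3126 had an unadjusted p under 0.05). The correction also moved the median of all genes, from 0.14 to 0.0143. Smarca2 then stood at 0.0104, Smarca4 at 0.110, Arid2 at 0.107, Smarcc2 at 0.0235 and Smarcb1 at -0.107, while Arid1a, Arid1b and Smarcc1 turned negative (-0.0414, -0.0457 and -0.193). Before that correction the 7 genes other than Smarca5 and Smarcb1 had log2 fold changes of 0.02 to 0.35, on either side of the 0.21 of their length class.

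The partners of SMARCA5 and SMARCA1 are the BAZ, BPTF, CECR2 and RSF1 proteins and small histone-fold or histone-binding subunits. Of the 12 partner genes, 12 were listed and 11 tested. Of these, 2 were called higher (Baz1a and Hmgxb4) and 0 lower, against 5.95% and 1.98% of all genes tested. Whether such counts differ from those shares was not tested. The median log2 fold change was 0.33 (0.19 after median scaling). Baz1a, which encodes ACF1 of the ACF and CHRAC complexes, had 4.10 and 4.54 FPKM in the NSN libraries and 7.74 and 6.51 FPKM in the SN libraries. Both SN libraries were higher, with a log2 fold change of 0.66 (SE 0.14, limma adjusted p = 0.0446), which was 0.52 after median scaling (limma adjusted p = 0.0716). Of its exons, 11.7% overlap other annotated genes. Hmgxb4, an HMG-box protein found with NURF, had 11.6 and 14.1 FPKM in the NSN libraries and 19.8 and 18.6 FPKM in the SN libraries, a log2 fold change of 0.56 (SE 0.12, limma adjusted p = 0.0457). It was 0.41 after median scaling (limma adjusted p = 0.0782). With voom on read pairs after median scaling, both genes were called (limma adjusted p = 0.0116 for Baz1a and 0.0304 for Hmgxb4). The calls therefore depended on the scaling and the fit together. Over the alternatives the limma adjusted p lay between 0.00263 and 0.142 for Baz1a and between 0.00689 and 0.135 for Hmgxb4. The most abundant partners were not called. Rbbp7, a histone-binding WD40 protein shared with several other complexes, had 2516 and 2593 FPKM in the NSN libraries and 2727 and 2711 FPKM in the SN libraries (log2 fold change 0.09, limma adjusted p = 0.376, and -0.06 after median scaling). Pole3, a histone-fold subunit of CHRAC and of DNA polymerase epsilon, had 111 ± 0.0991 FPKM in NSN and 104 ± 7.60 FPKM in SN oocytes (log2 fold change -0.09, limma adjusted p = 0.471, and -0.25 after median scaling, limma adjusted p = 0.132).

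The other SWI/SNF subunits changed in both directions. Of 22 genes, 18 were listed and 15 tested. Of these, 1 was called higher (Smarce1) and 1 lower (Dpf2), against 5.95% and 1.98% of all genes tested. The median log2 fold change was 0.21 (0.06 after median scaling). Smarcd3, Actl6b, Dpf1 and Bcl11b, of which Actl6b and Dpf1 are known as neuronal subunits, are not among the listed genes. Smarce1 (BAF57), an HMG-box core subunit, had 13.6 and 14.4 FPKM in the NSN libraries and 21.9 and 22.9 FPKM in the SN libraries. The replicates were close and the configurations well apart, with a log2 fold change of 0.66 (SE 0.10, limma adjusted p = 0.0364) and 0.51 after median scaling (limma adjusted p = 0.0497). Dpf2 (BAF45D), a PHD-finger subunit of canonical BAF that reads acetylated histone tails, had 6.30 and 4.69 FPKM in the NSN libraries and 2.78 and 2.15 FPKM in the SN libraries. Both SN libraries were lower, with a log2 fold change of -1.01 (SE 0.19, limma adjusted p = 0.0387), and the fall was larger after median scaling (-1.15, limma adjusted p = 0.0482). Over the alternatives the limma adjusted p lay between 0.00147 and 0.0978 for Smarce1 and between 0.00177 and 0.107 for Dpf2. The abundant Actl6a (BAF53A, an actin-related subunit) had 75.1 ± 3.73 FPKM in NSN and 79.8 ± 6.72 FPKM in SN oocytes (log2 fold change 0.09, limma adjusted p = 0.556, and -0.07 after median scaling). Of the exons of Actl6a, 21.8% overlap other annotated genes. Bcl7b had 26.3 ± 0.335 FPKM in NSN and 30.4 ± 1.46 FPKM in SN oocytes (log2 fold change 0.20, limma adjusted p = 0.177, and 0.05 after median scaling).

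**Figure D4:**
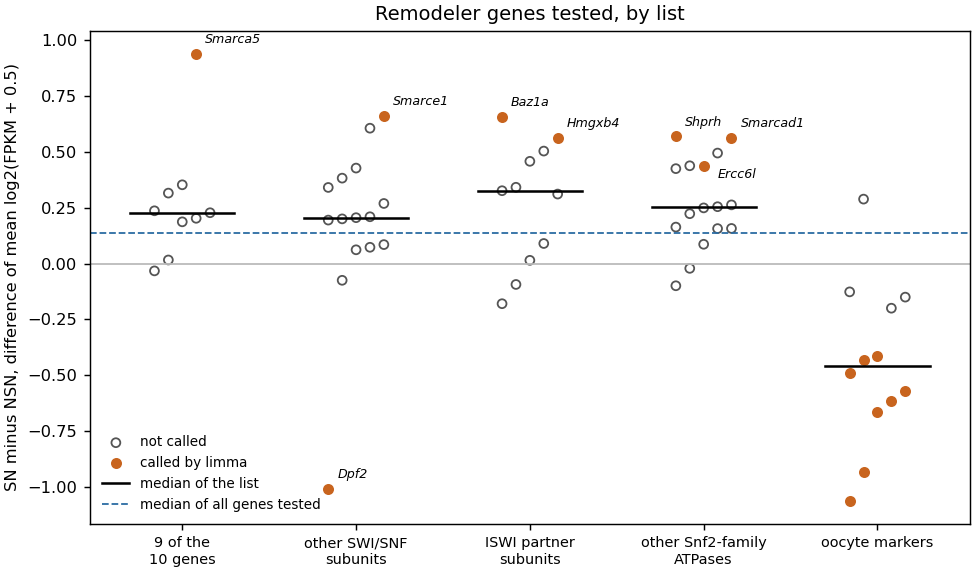
Difference of mean log2(FPKM + 0.5) between SN and NSN oocytes for each gene tested, by list, with called genes filled, the median of each list as a black line and the median of all genes tested (0.14) dashed. The 9 remodeler genes have a median of 0.23 with Smarca5 at 0.94, Dpf2 at -1.01 is the one subunit called lower, and 8 of the 12 oocyte markers are called lower. Of all genes tested, 5.95% are called higher and 1.98% lower.

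The other ATPases of the Snf2 family include the remodelers INO80 and EP400 and enzymes of DNA repair and mitosis. All 18 were listed and 16 tested. Of these, 3 were called higher (Smarcad1, Shprh and Ercc6l) and 0 lower, against 5.95% and 1.98% of all genes tested. The median log2 fold change was 0.25 (0.11 after median scaling). Smarcad1, a remodeler that maintains silent chromatin through replication, rose from 5.64 ± 0.631 to 8.55 ± 0.189 FPKM (log2 fold change 0.56, limma adjusted p = 0.0473). Shprh, a ubiquitin ligase of damage tolerance, rose from 3.27 ± 0.201 to 5.09 ± 0.225 FPKM (log2 fold change 0.57, limma adjusted p = 0.0487). Ercc6l (PICH), which acts on DNA bridges in mitosis, rose from 15.2 ± 0.736 to 20.8 ± 0.180 FPKM (log2 fold change 0.44, limma adjusted p = 0.0457). After median scaling their log2 fold changes were 0.42, 0.43 and 0.29 and none of the 3 passed (limma adjusted p = 0.0804, 0.0862 and 0.10). With voom after median scaling, Smarcad1 and Shprh were called (limma adjusted p = 0.0191 and 0.0108) and Ercc6l was not (0.0703). Over the alternatives that kept all 4 libraries, the limma adjusted p lay between 0.00416 and 0.153 for Smarcad1. It lay between 0.00218 and 0.249 for Shprh and between 0.0117 and 0.122 for Ercc6l. The most abundant were Smarcal1 (40.9 ± 0.284 and 38.2 ± 0.225 FPKM, log2 fold change -0.10, limma adjusted p = 0.430, and -0.25 after median scaling, limma adjusted p = 0.11) and Atrx (24.2 ± 1.57 and 33.1 ± 4.03 FPKM, log2 fold change 0.44, limma adjusted p = 0.0625, and 0.29 after median scaling). The Smarca5 change of 0.94 exceeded that of every one of these 16 ATPases, of which the largest was 0.57, and this order was not tested.

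The 7 called genes outside the 10, namely Smarce1, Dpf2, Baz1a, Hmgxb4, Smarcad1, Shprh and Ercc6l, kept their direction whichever library was omitted. Like Smarca5, each kept its call without NSN replicate 2 and lost it without any 1 of the other 3 libraries. The calls over all genes moved in the same way with these libraries, as given above. The pattern is therefore not particular to these genes.

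Ctcf, whose binding depends on ISWI remodeling in other cells, had 13.5 and 14.5 FPKM in the NSN libraries and 18.6 and 18.1 FPKM in the SN libraries. Both SN libraries were higher, with a log2 fold change of 0.38 (SE 0.10) that did not pass the test (limma adjusted p = 0.0604, and between 0.0185 and 0.235 over the alternatives). After median scaling it was 0.23 (limma adjusted p = 0.16).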

How the data were processed

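The 4 libraries were made by the authors with Smart-seq2 and trimmed with Trim Galore 0.6.10. The authors mapped reads to GRCm39 with HISAT2, counted primary read pairs on GENCODE exons without strand with featureCounts, and deposited FPKM from a script of their own. The study used DESeq2 on counts, which were not used here. The labels' protocol describes more replicates, and the 4 libraries given were analysed.

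SN and NSN were compared with limma 3.58.1 in R 4.3.3 (lmFit, eBayes with trend) on log2(FPKM + 0.5), two-sided, as set out in the report. The fit was first run on simulated read pairs. These held no shift of all genes between the configurations, unlike the data here, so that run carries no information on the choice of scaling. Whole read pairs (within 0.0001) and lengths were recovered from the FPKM for 16834 of 16861 genes, with library totals from 5 mitochondrial tRNA genes, and served voom, the length correction and counting intervals. Exonic GC, positions and promoters came from a later GENCODE release on GRCm39. Other values used Python 3.11.15, pandas 2.3.3, numpy 2.4.6 and scipy 1.17.1, and plots matplotlib 3.10.9.

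The 10 genes, the lists and the tests were chosen with earlier results of these data known. Besides the 10 genes, those named are the called genes of each list (up to 6), the 2 most abundant of each list, Ctcf, 3 oocyte genes and somatic markers with a mean of at least 1 FPKM.

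Alternatives were pseudocounts of 0.1 and 1, no filter, a mean FPKM of at least 5, no variance trend, median scaling, quantile normalization, a block for the replicate number, corrections for length and GC content (loess span 0.3), voom on read pairs, and each library left out. Lengths of the later annotation and 4 further gene pairs were added after the data were seen.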

Additional observations from a re-analysis of the deposited data

How the results depend on the processing

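Smarca5 was called with pseudocounts of 0.1 and 1, for genes at a mean of 5 FPKM or more, with median scaling, quantile normalization, the replicate block and both forms of voom, with limma adjusted p from 0.000528 to 0.0498. The number of the 10 genes called was 0 with no filter (limma adjusted p of Smarca5 0.0541), with no variance trend (0.0921), after length correction without and with the replicate block (0.0518 and 0.0953) and after GC correction (0.0502), and it was 2 with voom, where Arid2 was added. Leaving out 1 library in turn gave 0 to 1 genes called, with the lone library assumed to vary like the others. Calls over all genes were 926 with the settings used, and 0 with no filter, with no variance trend and after length correction, block or not (4092, 3449, 3126 and 2766 genes at an unadjusted p under 0.05). They were 1496 at a mean FPKM of at least 5 (1169 higher), 257 after median scaling, 230 after quantile normalization (74 higher), 112 after GC correction (32 higher), 2321 with voom (1780 higher), 1720 with voom and median scaling (752 higher), 422 with the replicate block (266 higher) and 0 to 1685 with a library left out. The pseudocounts gave 773 and 946.

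The median log2 fold change of the 9 genes, 0.23, became 0.0898 after median scaling, 0.12 after quantile normalization, 0.0104 after length correction (block or not) and 0.0984 with voom and median scaling, and 0.16 to 0.31 with a library left out. Median scaling, quantile normalization and the length correction each take out most of the shift of all genes by construction. The median of all genes was 0.14 on the deposited FPKM and 0.00512, 0.0164 and 0.0143 after these 3 in turn. With voom and median scaling it was 0.00493. How much of the move after length correction came from length itself was not tested, nor was the cause of the other moves. Smarcc1 changed sign to -0.0778 after median scaling, -0.0566 after quantile normalization, -0.193 after length correction (block or not), -0.105 after GC correction and -0.13 with voom and median scaling, and ranged from -0.0763 to 0.109 with a library left out. Arid1a became -0.0414 and Arid1b -0.0457 after length correction (block or not), and Smarcb1 ranged from -0.0735 to 0.00836 with a library left out. None of these passed the test. With a pseudocount of 0.5, the log2 ratio difference of Smarca5 to Smarca1 was 1.04 and not 2.58. Both values rest on the 24 read pairs of Smarca1, and without a pseudocount the difference ranged from 1.21 to 3.94 with a library left out. Over the 9 genes, leaving out a library aside, 96 values kept both sign and call, 5 lost the call, 1 gained it and 10 changed sign. Replicate differences of NSN and SN correlated at -0.07 across genes, and nothing ties a replicate number to a batch. With 2 libraries per configuration, this value cannot show whether libraries of the same number belong together. The replicate block changed the call of none of the 9 genes. Of the 7 called genes outside them, Smarce1 and Dpf2 were called with the block (limma adjusted p = 0.0498 and 0.0469) and the other 5 were not. Few read pairs limit Smarca1, Smarcc1 and Smarcc2.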

Other observations

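Pairs of related subunits outside the 10 genes were compared within libraries after their values were seen, so the ratios are descriptions. Dpf2 and Dpf3 encode PHD-finger subunits that take the same place in BAF. The ratio of Dpf2 to Dpf3 was 0.663 and 0.489 in NSN and 0.230 and 0.192 in SN oocytes, so Dpf2 went from 39.9% and 32.8% to 18.7% and 16.1% of the summed FPKM of both genes. The log2 ratio was 1.44 lower (-1.44, SD between replicates 0.26, from -1.66 to -1.22 with a library left out). Dpf3 itself had 9.55 ± 0.0661 FPKM in NSN and 11.6 ± 0.594 FPKM in SN oocytes (SD, n = 2), which did not pass the test (limma adjusted p = 0.137), and Dpf2 rests on 368, 282, 159 and 130 read pairs.

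Ss18l1 (CREST) and Ss18 encode alternative subunits of BAF and GBAF. Ss18l1 stood to Ss18 as 0.459 and 0.383 in NSN and as 0.562 and 0.731 in SN oocytes. Baz1a stood to Baz1b, which encodes the partner of SMARCA5 in the WICH complex, as 0.501 and 0.573 in NSN and as 0.711 and 0.693 in SN. Brd7 stood to Pbrm1, both bromodomain subunits of PBAF, as 8.55 and 9.05 in NSN and as 12.3 and 13.5 in SN. Of the exons of Brd7, 28.4% overlap other annotated genes such as Adcy7, and read pairs were counted without strand. The log2 differences were 0.61 (SD between replicates 0.23), 0.39 (0.10) and 0.55 (0.08), each with the configurations apart. For all 4 pairs the exact two-sided permutation p was 0.333, the smallest that 2 libraries against 2 allow.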
